A study of Rattus norvegicus with 8 samples.

Results

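Neurons release transmitter by fusing synaptic vesicles with the presynaptic membrane, and the genes described here encode the proteins that carry out and control that fusion. SNARE proteins on the vesicle (the VAMPs) and on the target membrane (syntaxins and SNAP proteins) zipper into a complex that pulls both membranes together. Syntaxin-binding proteins and complexins control the assembly of that complex, synaptotagmins sense calcium, RIM and UNC13 proteins dock and prime vesicles at the active zone, and Rab3 GTPases tether vesicles there. In the hippocampus this machinery serves the excitatory synapses of the trisynaptic circuit and the inhibitory synapses of interneurons. Several family members work outside neurons as well, in endosomes, lysosomes and secretory granules.

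Members were the non-control array probes whose RefSeq accession maps to a symbol that starts with Vamp, Sv2, Stxbp, Cplx, Rab3, Rims or Unc13, to Syt, Stx or Snap followed by a digit, or to Syn1, Syn2, Syn3 or Syp. That rule found 78 of the 12206 genes named on the array, measured by 100 of its 41012 distinct probes, of which 15184 carried a gene name. It is a rule on names, so it also took in Snap91, the clathrin assembly protein AP180 and no SNARE, and 9 other Rab genes from Rab31 to Rab39a, which are not Rab3 isoforms. Of the 94 symbols in the reference table that fit the rule, 16 had no named probe and were not analysed here.

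The samples were hippocampi of 8 male Wistar rats. For the 4 CCH rats, coral calcium hydride powder (CCH, a source of hydrogen) made up 0.1% of a standard CE-2 diet, and the 4 control rats ate that diet alone. All entered the study at 6 weeks of age and were killed at 8 weeks, and each hippocampal RNA was hybridised to its own 1-colour Agilent array. Groups were taken from titles and treatment labels, although free-text descriptions of the samples name a lesion model and injections that fit neither. All CCH arrays shared one slide and scan and all control arrays another, so an effect of the slide or its scan and one of the diet cannot be told apart below.

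Each value below is a log2 signal relative to the array's 75th percentile, so 0 means a spot as bright as that percentile and each unit is a doubling. The 75th percentile itself was 732 ± 110 intensity units on CCH arrays and 611 ± 61.0 on control arrays (SD, n = 4 each; two-sided exact permutation p = 0.0857), and the share of spots well above background ran from 76.3% to 78.6% on CCH arrays and from 76.7% to 79.9% on control arrays. The median local background was 34.9 ± 0.25 intensity units on CCH arrays and 33.25 ± 0.96 on control arrays (SD, n = 4 each), with no overlap and the smallest p that 4 against 4 arrays allow (two-sided exact permutation p = 0.0286). With normexp, another background correction, the median log2 difference was -0.050 over the members and -0.070 over all tested probes. Normexp was run with an added offset of 50 intensity units, and the parts of correction and offset in its estimates were not separated. Levels of different probes are not comparable, since each probe binds with its own efficiency. The neuronal markers Snrpn, Uchl1, Nefm, Tubb3, Nefl and Map2 and the hippocampal markers Nrgn, Neurod2, Neurod6, Wfs1, Zbtb20 and Prox1 were well above background on all 8 arrays. In whole tissue, fewer cells of a type and less RNA per cell cannot be told apart.

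No synaptic vesicle or SNARE gene was called between CCH and control. Of the 100 member probes 97, for 76 genes, gave signal well above background on 4 or more of the 8 arrays and entered the test. The probes of Stx19 and Syt15 and 1 of the 2 Rab32 probes were not above background on any array. At an adjusted p under 0.05 (limma, Benjamini-Hochberg over all 31618 tested probes) 0 of the 97 passed, where 0.174% of all tested probes did (0.0759% higher and 0.098% lower in CCH). At an unadjusted p under 0.05, 12 of the 97 member probes passed (12.4%), 4 higher and 8 lower in CCH, against 15.4% of all tested probes (8.79% higher and 6.59% lower). The groups did not overlap in 11 member probes (11.3%), against 11.3% of all tested probes. The members' shares were thus near or below those of the whole array.

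The differences were small as well as uncalled. Over the 97 probes 48 were higher and 49 lower in CCH, with a median log2 difference of -2.5e-05, against a median of 0.03 over all tested probes. A total of 78 of the 97 (80.4%) lay within 0.25 of no difference, against 70.04% of all tested probes. The 95% confidence interval of the difference lay wholly between -0.5 and 0.5 for 61 of the 97, against 49.7% of all tested probes. For the remaining member probes the interval reached beyond 0.5 in at least one direction. The spread between arrays of one diet had a median SD of 0.18 over the member probes and 0.20 over all tested probes. The distribution of the differences shows both sets side by side.

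**Figure D1:**
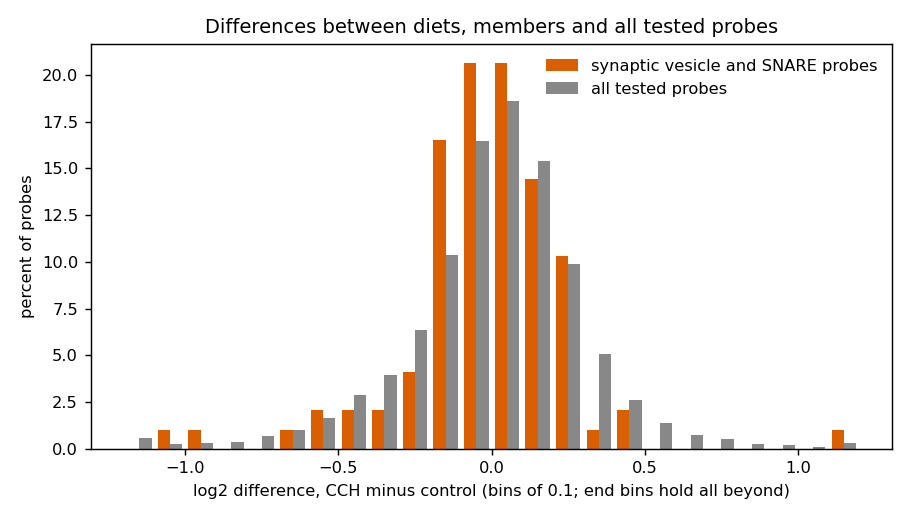
Share of probes (vertical axis, percent) by log2 difference between CCH and control (horizontal axis, bins of 0.1, the end bins holding all values beyond). Orange bars stand for the 97 tested synaptic vesicle and SNARE probes and grey bars for all 31618 tested probes; both sets centre close to 0, with medians of -2.5e-05 and 0.03.

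**Figure D2:**
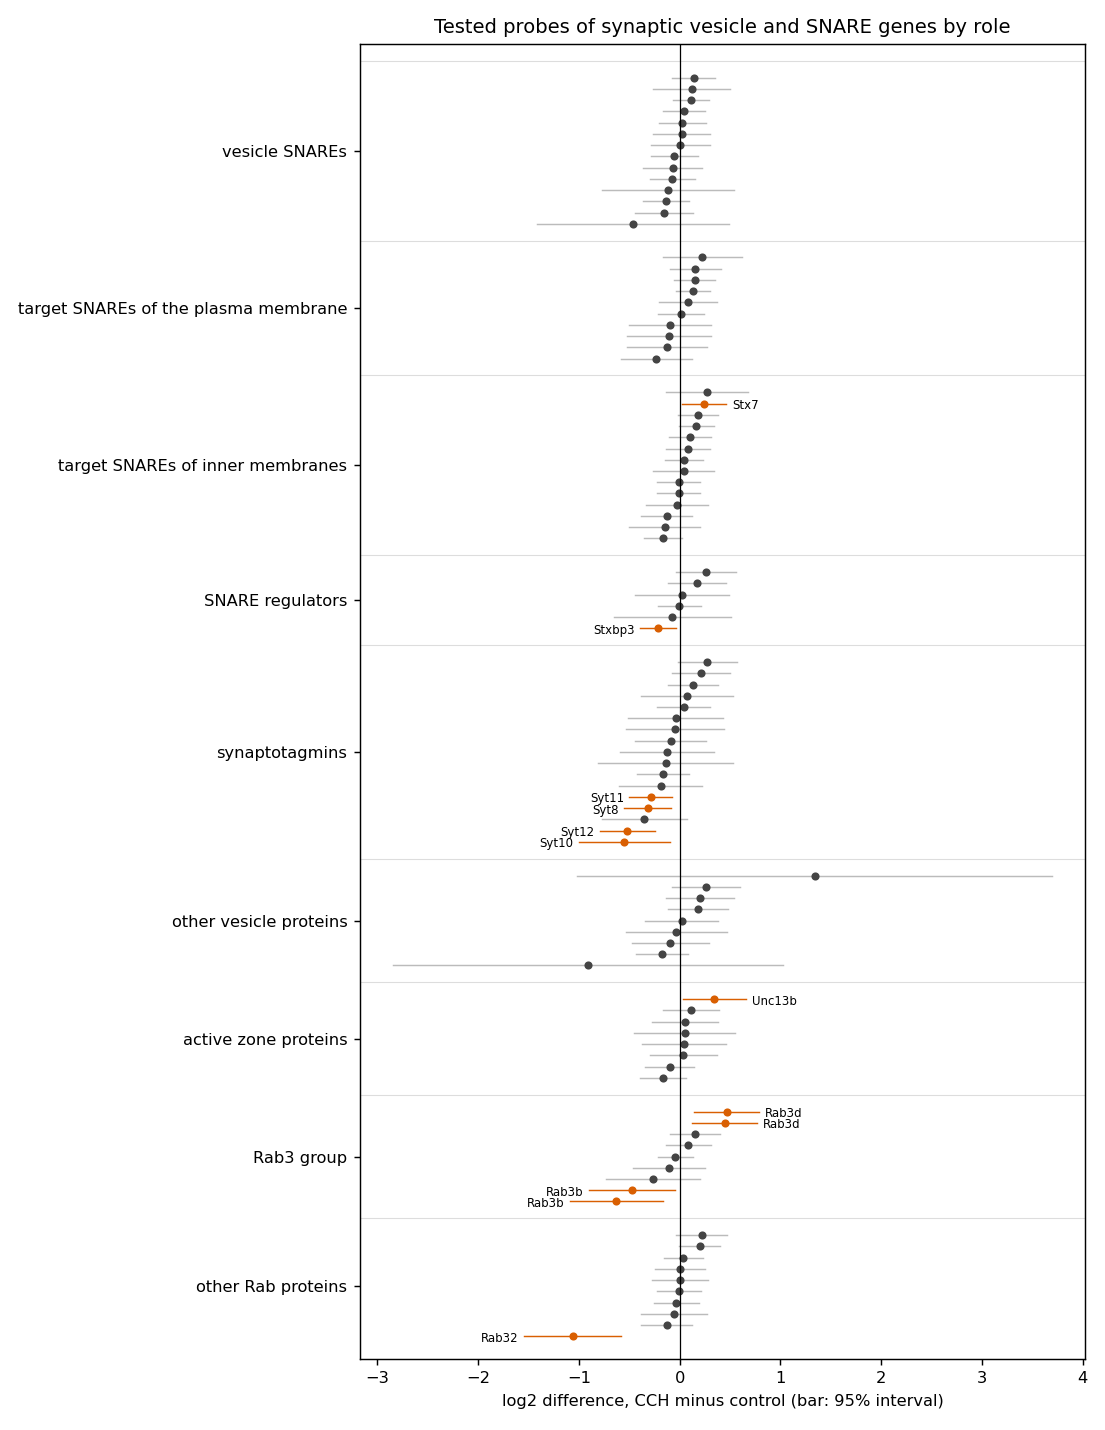
Log2 difference, CCH minus control, of each tested member probe, grouped by role. Points are estimates and bars 95% confidence intervals; orange marks the 12 probes with an unadjusted p under 0.05, none of which passed adjustment, and the 2 widest bars among the other vesicle proteins are Syn1 and Sv2c.

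For the vesicle SNAREs 13 of 14 estimates lay within 0.25 of no difference. Of 14 tested probes for 7 genes, 7 were higher and 7 lower, none with an unadjusted p under 0.05, and the median difference was -0.02. Vamp2, or synaptobrevin 2, is the main vesicle SNARE of forebrain synapses. Its brighter probe read 4.07, 4.06, 4.17 and 4.30 on CCH replicates 1 to 4, against 4.09, 4.31, 3.99 and 4.11 on control replicates 1 to 4. The groups overlapped throughout, and the difference was 0.03 with a 95% interval from -0.21 to 0.26. The other Vamp2 probe stood at 0.12 ± 0.17 (SE). Vamp1, the related isoform that is abundant in spinal cord and brainstem, differed by -0.07 on both of its probes.

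Vamp4, which serves the trans-Golgi network and endosomes, had 6 tested probes with differences from -0.14 to 0.14. Vamp3, or cellubrevin, a broadly expressed SNARE of recycling endosomes, differed by 0.05, and Vamp7, a SNARE of late endosomes and lysosomes, by -0.15 ± 0.13 (SE). The largest difference in this class was that of Vamp5, known from muscle, at -0.46 ± 0.42 (SE, limma adjusted p = 0.654). It read -0.58, -0.43, -0.79 and -1.05 on the CCH arrays, against 0.83, -0.97, 0.23 and -1.08 on the controls. Control replicates 1 and 3 were high and the other 6 arrays close together, and without control replicate 1 the difference was -0.10.

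The target SNAREs of the plasma membrane showed the same picture, with 6 of 10 tested probes higher, 4 lower, 0 at an unadjusted p under 0.05 and a median difference of 0.05. Snap25, the neuronal SNAP protein that botulinum toxin A cleaves, is printed 10 times on each array. It averaged 5.51 ± 0.09 in CCH and 5.50 ± 0.13 in controls (SD, n = 4 each), and its difference of 0.01 had a 95% interval from -0.21 to 0.24. Stx1a, a syntaxin that partners it on the presynaptic membrane, read -0.97, -1.22, -1.38 and -1.14 on the CCH arrays and -1.41, -1.23, -1.42 and -1.27 on the controls, a difference of 0.16 ± 0.11 (SE). The groups overlapped, and the interval of the difference included 0.

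Among the syntaxins that serve other plasma membranes, Stx4, known from insulin-stimulated glucose transporter traffic, read 2.05, 2.01, 2.07 and 2.03 on the CCH arrays against 1.88, 1.97, 1.95 and 1.84 on the controls. The groups did not overlap, but the difference of 0.13 had an adjusted p of 0.458 by limma. Stx2 and Stx3 differed by 0.08 and 0.15. Stx11, a syntaxin of immune cells, differed by 0.23 ± 0.17 (SE), and by -0.17 with normexp background correction. The 3 probes of Snap23, the widely expressed relative of Snap25, were at -0.09, -0.11 and -0.12.

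The target SNAREs of inner membranes had 8 of 14 tested probes higher and 6 lower, with a median of 0.04. One probe of Stx7, a late-endosomal syntaxin, had an unadjusted p of 0.0353. It read 1.72, 1.56, 1.54 and 1.47 on the CCH arrays and 1.38, 1.23, 1.25 and 1.48 on the controls, where control replicate 4 reached into the CCH range. The difference was 0.24 ± 0.10 (SE, adjusted p = 0.285 by limma), and the brighter Stx7 probe was at 0.11 ± 0.09 (SE). Stx5, the Golgi syntaxin, differed by 0.28 ± 0.18 (SE). CCH replicate 1 alone was high at -1.85, the other CCH arrays read -2.65 to -2.49 and the controls -2.80 to -2.54, and without CCH replicate 1 the difference was 0.10. Stx18, a syntaxin of the endoplasmic reticulum, differed by 0.17 with groups that did not overlap (limma adjusted p = 0.354). Stx6, Stx8, Stx12, Stx17, Snap29 and Snap47 ranged from -0.16 (a probe of Stx12) to 0.18 (a probe of Stx6).

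Regulators of SNARE assembly were represented by 6 probes, 3 higher and 3 lower. Stxbp3, or Munc18c, which pairs with Stx4, had the one unadjusted p under 0.05 of the class. Stxbp3 read 2.70, 2.68, 2.65 and 2.56 on the CCH arrays against 2.78, 2.91, 2.89 and 2.87 on the controls. All CCH arrays lay below all controls, and the difference was -0.21 ± 0.08 (SE, adjusted p = 0.249 by limma). Tomosyn (Stxbp5), which holds syntaxin away from VAMP, differed by 0.26 ± 0.13 (SE), and by 0.15 without CCH replicate 1.

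Complexins clamp partly assembled SNARE complexes until calcium arrives. Cplx1 averaged -2.20 ± 0.08 in CCH and -2.20 ± 0.12 in controls (SD, n = 4 each), with an interval of the difference from -0.21 to 0.21. Cplx2, the form prominent in hippocampal excitatory neurons, read 2.63, 3.11, 3.38 and 3.29 on the CCH arrays and 2.76, 3.40, 2.89 and 3.27 on the controls. The lowest reading of each diet was on its replicate 1, the groups spanned the same range, and the difference was 0.02 with an interval from -0.44 to 0.49.

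Synaptotagmins were more often lower than higher. Of 17 tested probes for 14 genes, 5 were higher and 12 lower in CCH, with a median of -0.12. Of all 31618 tested probes 14184 were lower. The 12 include the brighter Syt1 probe, Syt2 and Syt7, whose sign turned on leaving out 1 array. A total of 4 of the lower ones (23.5% of the 17) had an unadjusted p under 0.05, where 6.59% of all tested probes were lower at that level. These were Syt8, Syt10, Syt11 and Syt12, none of them a fast calcium sensor of release. Syt12, a synaptotagmin that does not bind calcium, read 0.43, 0.43, 0.55 and 0.34 on the CCH arrays, against 0.75, 1.20, 1.06 and 0.82 on the controls. All CCH arrays lay below all control arrays. The difference was -0.52 ± 0.12 (SE, n = 4 each, adjusted p = 0.0985 by limma), a level 1.43-fold higher in controls. It passed the threshold with normexp background correction (-0.50, adjusted p = 0.0481) and with array weights (-0.53, adjusted p = 0.0363), settings at which 0.778% (0.56% lower) and 4.23% (1.89% lower) of all tested probes passed.

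Syt11, also unable to bind calcium and known from endocytosis and lysosomal traffic in neurons, read 0.52, 0.84, 0.72 and 0.76 on the CCH arrays against 0.98, 1.05, 0.94 and 1.01 on the controls. The groups did not overlap and the difference was -0.29 ± 0.09 (SE, limma adjusted p = 0.200). Syt10, the calcium sensor for secretion of insulin-like growth factor 1 in mouse olfactory bulb neurons, read -3.57, -4.12, -4.29 and -4.40 on the CCH arrays. On the controls Syt10 read -3.44, -3.76, -3.71 and -3.27. CCH replicate 1 lay inside the control range, the difference was -0.55 ± 0.20 (SE, limma adjusted p = 0.238), and with array weights it was -0.69 and passed (adjusted p = 0.0381). With array weights 1.89% of all tested probes were called lower. Syt8 read -4.47, -4.61, -4.49 and -4.58 on the CCH arrays and -4.09, -4.07, -4.28 and -4.42 on the controls. Its groups did not overlap either, with a difference of -0.32 ± 0.10 (SE, limma adjusted p = 0.197).

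For the calcium sensors that trigger fusion no difference was called, but the intervals were wide. The 95% interval ran from -0.51 to 0.43 for the brighter Syt1 probe, from -0.59 to 0.34 for Syt2 and from -0.53 to 0.44 for Syt7. Syt1, the sensor for fast synchronous release in forebrain neurons, read 1.04, 1.69, 1.89 and 1.86 on the CCH arrays and 1.42, 1.84, 1.51 and 1.86 on the controls with its brighter probe. That probe differed by -0.04 ± 0.20 (SE) and the dimmer one by 0.21 ± 0.13 (SE), and the brighter one turned to 0.15 without CCH replicate 1. Syt2, the fast sensor of hindbrain and some inhibitory synapses, differed by -0.12 ± 0.20 (SE), or 0.07 without control replicate 3. Syt7, a high-affinity sensor of asynchronous release, differed by -0.04 ± 0.21 (SE). Its CCH replicate 1 stood at -3.12, the other CCH arrays at -2.30 to -2.13 and the controls at -2.54 to -2.26, and without CCH replicate 1 the difference was 0.18. Syt4, an activity-induced synaptotagmin of dense-core vesicles, had 3 tested probes at -0.35, -0.19 and 0.07. On all 3 of them CCH replicate 4 gave the lowest reading of the 8 arrays (2.68, 1.16 and -1.89). The remaining family members, Syt3, Syt5, Syt6, Syt9, Syt13 and Syt17, ranged from -0.16 (Syt13) to 0.27 (Syt3).

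Among the other vesicle proteins, 5 of 9 tested probes were higher and 4 lower, none with an unadjusted p under 0.05. Synaptophysin (Syp), an abundant vesicle membrane protein and a standard marker of synapses, read 4.65, 4.99, 5.09 and 5.10 on the CCH arrays against 4.49, 5.01, 4.71 and 4.58 on the controls. Of the controls only replicate 2 reached the higher CCH readings. The difference was 0.26 with a 95% interval from -0.08 to 0.60 (limma adjusted p = 0.456), and 0.36 without CCH replicate 1 (limma adjusted p = 0.169). Synapsins tether vesicles to each other in the reserve pool. Syn2 averaged 3.00 ± 0.25 in CCH and 2.98 ± 0.23 in controls (SD, n = 4 each), and Syn3 differed by 0.18 ± 0.13 (SE), or by -0.10 with normexp.

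The value of Syn1 rested on a single spot of a single array. It read 0.40, 0.28, -0.03 and 0.19 on the CCH arrays and 0.04, 0.23, -0.03 and -4.76 on control replicates 1 to 4. Its log2 difference was accordingly 1.34 ± 1.03 (SE, limma adjusted p = 0.591), and 0.13 without control replicate 4. The spot carried no outlier mark and was recorded as well above background. Sv2a, the vesicle glycoprotein bound by the antiepileptic drug levetiracetam, averaged 3.79 ± 0.13 in CCH and 3.97 ± 0.16 in controls (SD, n = 4 each), a difference of -0.18 ± 0.11 (SE). The Sv2b probes differed by -0.03 and -0.09, with CCH replicate 1 the lowest of the 8 arrays on both. Sv2c, a form most abundant in the basal ganglia, was well above background on only 2 CCH arrays and 2 control arrays. Its difference of -0.91 ± 0.85 (SE) came with a reading of -3.29 on control replicate 3, against -7.30 to -6.73 on the other controls and -7.63 to -6.32 on the CCH arrays. Snap91, or AP180, differed by 0.20 ± 0.15 (SE).

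**Figure D3:**
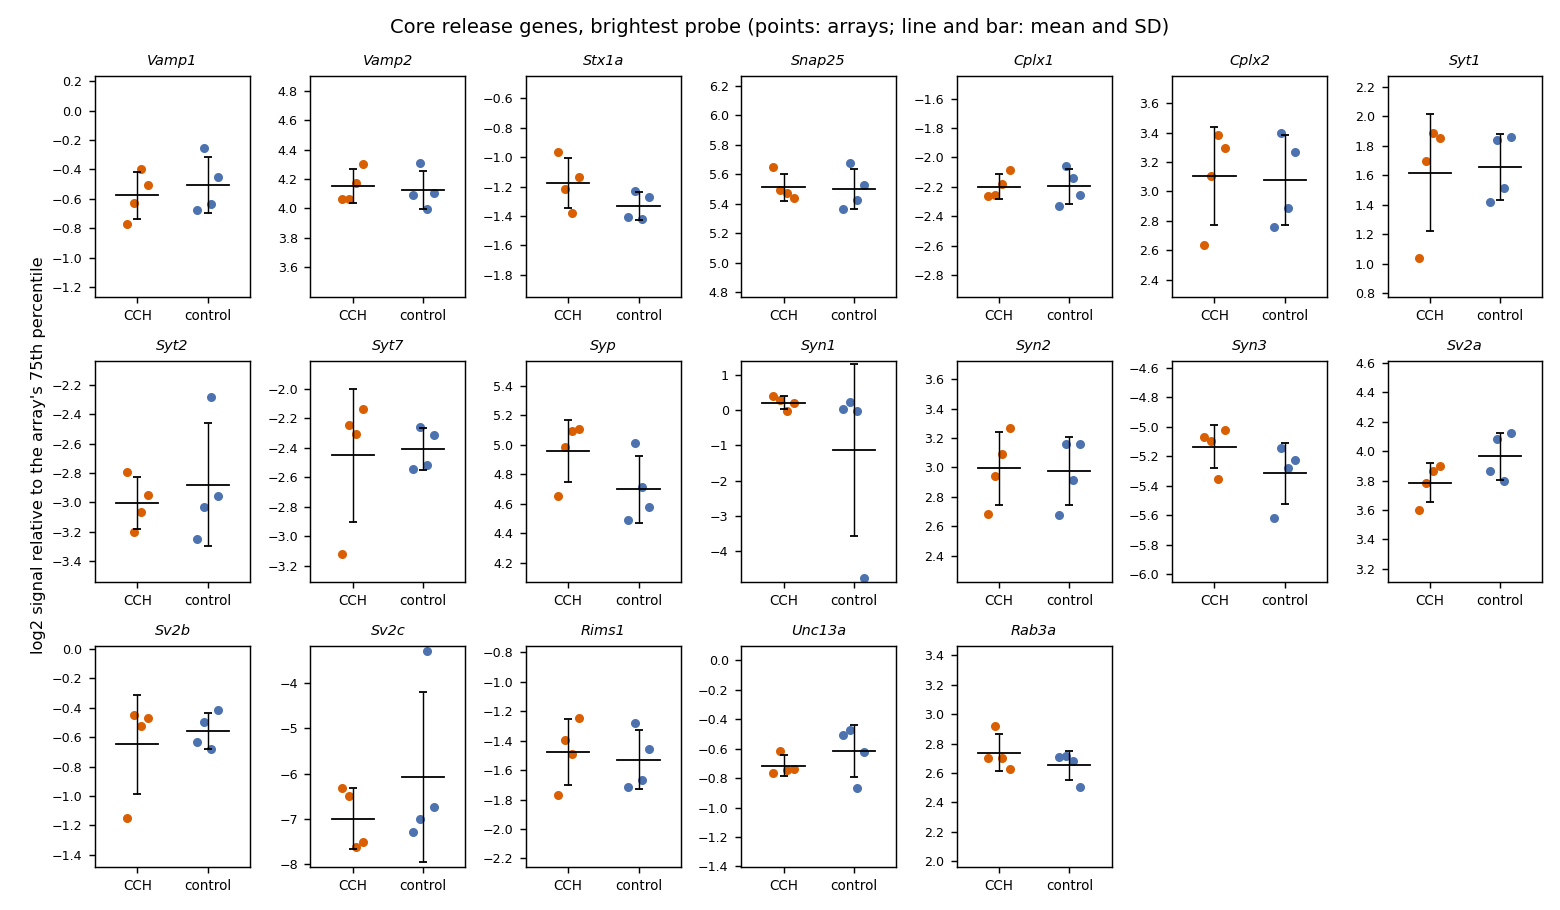
Log2 signal relative to the array's 75th percentile (vertical axes) of 19 core release genes on CCH arrays (orange, left) and control arrays (blue, right); points are arrays, lines means and bars SD (n = 4). In each of the 19 panels the arrays of both diets overlap, and the points farthest from their group include Syn1 on control replicate 4 (-4.76), Sv2c on control replicate 3 (-3.29), Syt7 on CCH replicate 1 (-3.12) and Sv2b on CCH replicate 1 (-1.15).

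A set of 21 core release genes, which holds those plotted, split by brightest probe into 11 higher and 10 lower, with a median difference of 0.01. The interval of the difference included 0 for all 21 and lay wholly between -0.5 and 0.5 for 14. By array, the median deviation of these genes from their own means was -0.10, 0.04, 0.01 and 0.12 on CCH replicates 1 to 4 and -0.14, 0.17, -0.08 and -0.0018 on control replicates 1 to 4. Both diets thus held arrays below and above the mean. For the neuronal markers the mean deviation over 6 genes was taken, not the median. It stood at -0.27, 0.06, 0.11 and 0.19 on the CCH arrays and at -0.16, 0.22, -0.21 and 0.07 on the controls. CCH replicate 1 and control replicates 1 and 3 were low in both measures, and the part of neuronal content in the members' values was not tested.

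Active zone proteins had 6 of 8 tested probes higher and 2 lower, with a median of 0.05. Unc13b, or Munc13-2, a vesicle priming factor, read -2.05, -2.49, -2.55 and -2.48 on the CCH arrays against -2.88, -2.52, -2.79 and -2.77 on the controls. CCH replicate 1 was high and control replicate 2 lay among the other CCH arrays. The difference was 0.35 ± 0.14 (SE, unadjusted p = 0.0346, limma adjusted p = 0.283), and it was 0.23 without CCH replicate 1 and 0.14 with normexp. Unc13a, or Munc13-1, the main priming factor of hippocampal excitatory synapses, averaged -0.72 ± 0.07 in CCH and -0.62 ± 0.18 in controls (SD, n = 4 each). Unc13c, a cerebellar form, and Unc13d, which primes cytotoxic granules, both differed by 0.04. Rims1 and Rims2, the long RIM scaffolds, differed by 0.05 ± 0.14 and -0.17 ± 0.10 (SE), and the short forms Rims3 and Rims4 by 0.05 and 0.11.

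Of the 9 tested probes of the Rab3 group, 4 were higher and 5 lower, and 4 (44.4%, against 15.4% of all tested probes) had an unadjusted p under 0.05, from 2 genes that stood on opposite sides of 0, each on both of its probes. Rab3d, best known from secretory granules of exocrine and immune cells, read 0.14, 0.47, 0.37 and 0.71 on the CCH arrays and -0.13, 0.08, -0.20 and 0.16 on the controls with its brighter probe. Control replicate 4 just exceeded CCH replicate 1. The second Rab3d probe read -2.50, -2.24, -2.59 and -2.09 on the CCH arrays and -2.98, -2.68, -2.97 and -2.66 on the controls, with no overlap. The differences were 0.45 ± 0.14 and 0.47 ± 0.14 (SE, limma adjusted p of 0.193 and 0.175), about 1.36-fold and 1.38-fold. With array weights the brighter probe passed (0.55, adjusted p = 0.0472), where 2.35% of all tested probes were called higher. With a covariate for choroid plexus markers both probes were at 0.29.

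Rab3b, a vesicle isoform known from hippocampal interneurons in mouse, read 0.29, 0.66, 0.74 and 0.86 on the CCH arrays against 1.62, 0.81, 1.53 and 1.11 on the controls. Control replicates 1 and 3 were high and control replicate 2 lay inside the CCH range. On the second probe Rab3b read -1.15, -1.03, -0.998 and -0.85 on the CCH arrays and -0.11, -0.93, -0.29 and -0.80 on the controls, and again control replicates 1 and 3 were the highest. The differences were -0.63 ± 0.20 and -0.47 ± 0.19 (SE, limma adjusted p of 0.197 and 0.28). Leaving out 1 array at a time they ranged from -0.78 to -0.51 and from -0.61 to -0.34. The interneuron markers Gad1, Gad2, Sst and Reln, averaged like the neuronal ones, were at -0.13 to -0.07 on the CCH arrays and 0.03 to 0.17 on the controls. Of these 4, Reln (-0.79) and Gad2 (-0.38) were lower and Sst (0.30) and Gad1 (0.13) higher in CCH, and their summed linear level overlapped, at 14.1 to 17.1 on the CCH arrays and 15.8 to 16.9 on the controls. On control replicates 1 to 4 the interneuron average was 0.07, 0.09, 0.03 and 0.17, an order other than that of Rab3b. The choroid plexus markers listed below stood at 2.36, -0.82, 2.01 and 1.43 there, the same order as both Rab3b probes. On the CCH arrays they stood at 1.23, -3.69, 1.74 and -4.26, another order than that of Rab3b. The part of either marker list in the Rab3b values was not tested.

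Rab3a, the main isoform at central synapses, read 2.70, 2.92, 2.70 and 2.63 on the CCH arrays and 2.71, 2.72, 2.68 and 2.51 on the controls. Those readings overlapped, with a difference of 0.09 and an interval from -0.14 to 0.31. Rab3c differed by -0.27 ± 0.20 (SE), with CCH replicate 1 low at -1.59 against -0.86 to -0.66 on the other CCH arrays and -0.86 to -0.52 on the controls. Rab3gap2, a subunit of the complex that inactivates Rab3, differed by -0.04, and the exchange factors Rab3ip (Rabin8) and Rab3il1 by 0.15 and -0.11.

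The other Rab genes that the name rule took in held the largest difference with a small p. Rab32 sorts cargo to melanosomes and other lysosome-related organelles and is a gene of macrophages and microglia as well. It read -4.63, -4.71, -4.98 and -5.24 on the CCH arrays against -3.33, -4.23, -3.78 and -3.97 on the controls. All CCH arrays lay below all controls. The probe was dim, averaging -4.89 in CCH and -3.83 in controls, though well above background on all arrays. Local background differed between the diets, and its part in the Rab32 value was not tested. The difference was -1.06 ± 0.21 (SE, n = 4 each, unadjusted p = 8.4e-04, adjusted p = 0.072 by limma), a level 2.09-fold higher in controls. It passed with normexp (-0.54, adjusted p = 0.0336) and with array weights (-1.13, adjusted p = 0.0242). At those settings 0.56% and 1.89% of all tested probes were called lower. The other Rab32 probe was not above background on any array. The microglia markers Aif1, Itgam, Csf1r, Cx3cr1, Tyrobp and Trem2, all measured, had 4 of 6 lower in CCH, and their summed linear level was 11.8 to 15.8 on the CCH arrays and 16.4 to 18.8 on the controls. Averaged relative to their means, however, they overlapped, at -0.22 to 0.04 on the CCH arrays and -0.03 to 0.14 on the controls, and Itgam (0.28) and Cx3cr1 (0.16) were higher in CCH. On the controls Rab32 ranked the arrays as the choroid plexus markers did, but on the CCH arrays it did not. The part of either marker list in the Rab32 value was not tested. The remaining 9 tested probes of this class, for Rab31 and Rab33a to Rab39a, ranged from -0.13 (Rab35) to 0.22 (Rab33b), and Rab33b was at -0.06 with normexp.

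**Figure D4:**
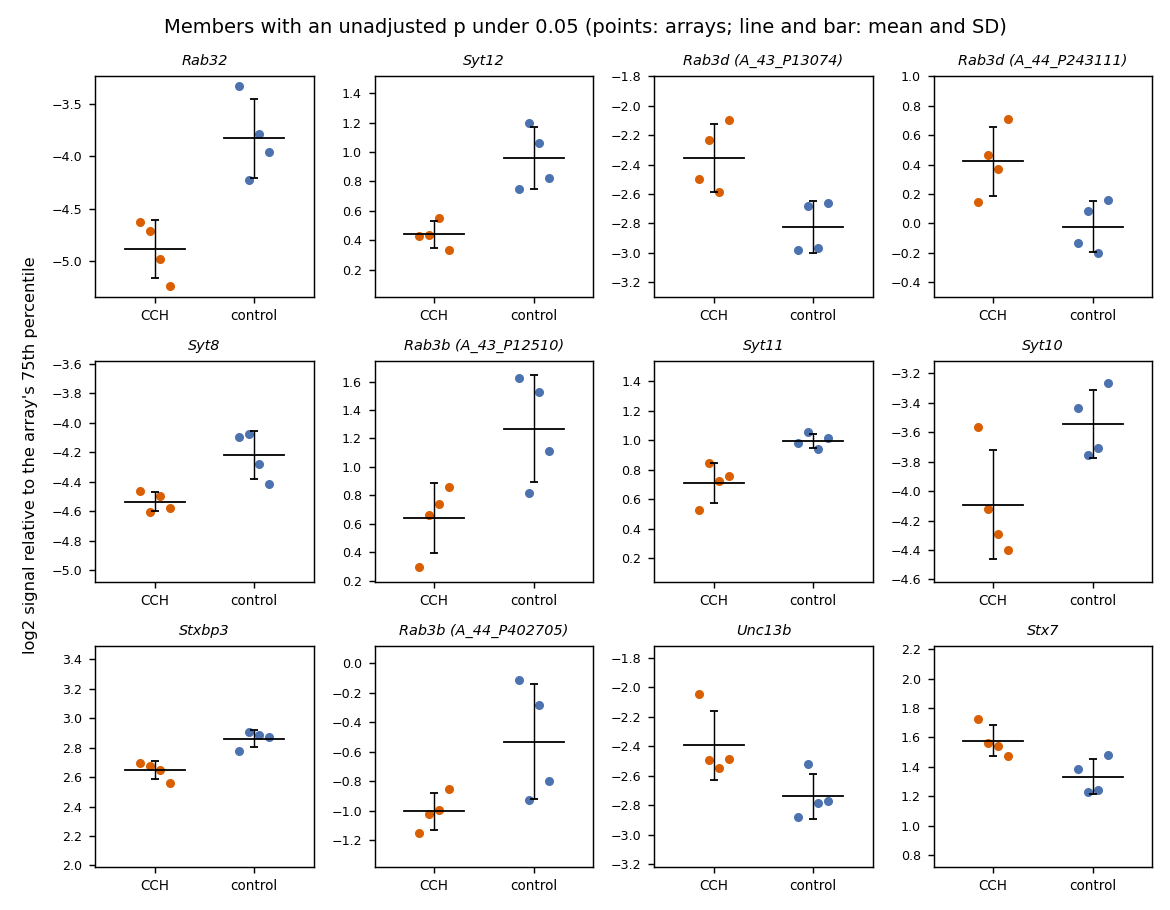
Log2 signal relative to the array's 75th percentile (vertical axes) of the 12 member probes with an unadjusted p under 0.05, in order of p, on CCH arrays (orange, left) and control arrays (blue, right); points are arrays, lines means and bars SD (n = 4). The diets do not overlap for Rab32, Syt12, Syt8, Syt11, Stxbp3 and 1 of 2 Rab3d probes, and no probe passed adjustment over all tested probes.

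Probes of one gene could be compared for the 14 genes with more than 1 tested probe. In 9 of them all probes stood on the same side of 0. The widest gap was in Syt4, from -0.35 to 0.07, followed by Vamp4 (-0.14 to 0.14) and Syt1 (-0.04 to 0.21). Of the 12 probes with an unadjusted p under 0.05, the pairs of Rab3b and Rab3d had the same sign, with gaps of 0.15 and 0.02. Rab32, Syt8, Syt10, Syt11, Syt12, Stxbp3 and Unc13b had no second tested probe, so their values rest on 1 spot per array.

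The spread of the members differed between arrays. On CCH replicate 1 the median absolute deviation of the 97 probes from the control mean was 0.22, against 0.13, 0.14 and 0.17 on CCH replicates 2 to 4. That array held the reading farthest from the CCH median for 51 of 97 member probes (52.6%), and for 57.0% of all tested probes. Without it 12 of 96 member probes had an unadjusted p under 0.05, 9 of them among the earlier 12 (12.5% of the members, against 21.9% of all tested probes), and 0 were called (lowest limma adjusted p = 0.0501, for Rab32), while the called probes on the whole array numbered 420 higher and 313 lower.

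**Figure D5:**
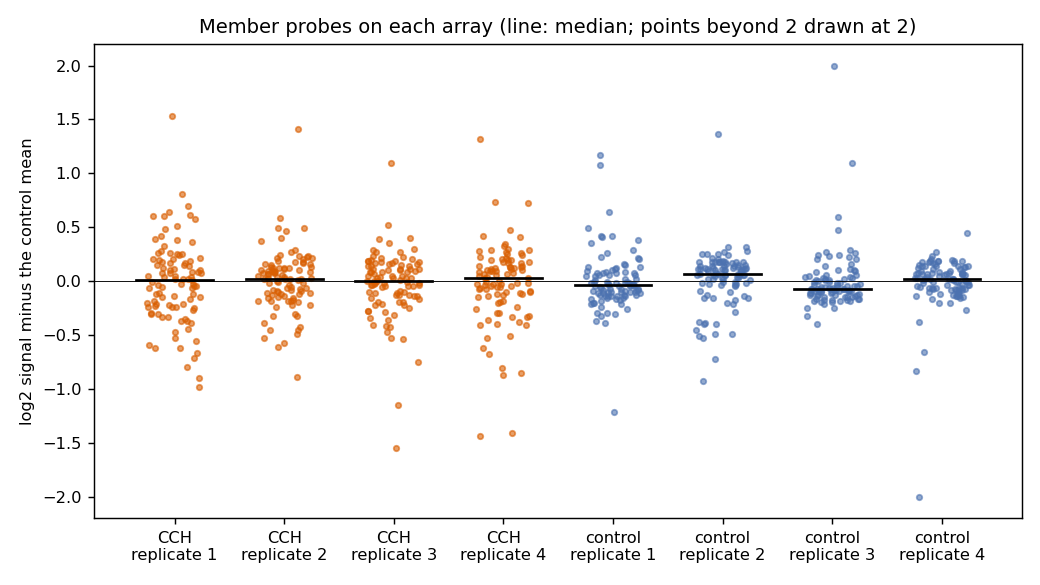
Log2 signal of each of the 97 tested member probes minus its control mean (vertical axis) on the 8 arrays, CCH in orange and control in blue; black lines are medians, and points beyond 2 in either direction are drawn at that limit. The control arrays are set against their own mean and so lie closer to 0; among the CCH arrays replicate 1 has the widest scatter, with a median absolute deviation of 0.22.

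A pair of members known from non-neuronal cells, chosen after their values were seen, followed another order of arrays. Vamp8, a SNARE of secretory granules in exocrine cells and platelets, read 1.51, 0.44, 0.79 and 0.39 on the CCH arrays and 1.32, 0.41, 1.13 and 0.74 on the controls. Stxbp2, or Munc18-2, of epithelia and cytotoxic cells, read -4.14, -5.09, -4.76 and -4.81 on the CCH arrays and -4.25, -5.16, -4.34 and -4.77 on the controls. The choroid plexus markers Ttr, Kl, Folr1, Kcnj13, Sostdc1 and Clic6, averaged relative to their means, stood at 1.23, -3.69, 1.74 and -4.26 on the CCH arrays and at 2.36, -0.82, 2.01 and 1.43 on the controls. The lowest 3 arrays in each of these measures were CCH replicates 2 and 4 and control replicate 2. That order was not particular to the pair. The brightest Snap23 probe read -0.79, -1.27, -1.08 and -1.36 on the CCH arrays and -0.80, -1.41, -0.79 and -1.11 on the controls. Its lowest 3 arrays were the same, as were those of another Snap23 probe and of Rab38, but not those of the dimmest Snap23 probe. All 6 choroid markers were lower in CCH, none called, and their summed linear level ran from 1.81 to 184 on the CCH arrays and from 34.7 to 251 on the controls. Their part in the values of these members was not tested.

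Other presynaptic genes, on a list of 62 of which 52 were tested, showed the same absence of calls. Of the 52 genes 38 were higher and 14 lower in CCH, with a median log2 difference of 0.06, 0 were called by limma, and 4 higher and 4 lower had an unadjusted p under 0.05 (15.4%, against 15.4% of all tested probes). Vesicle transporters were higher for 5 of 7, with the vesicular glutamate transporter Slc17a6 at 0.50 ± 0.20 (SE, limma adjusted p = 0.278), the zinc transporter Slc30a3 of mossy fibre vesicles at 0.24 ± 0.10 and Slc17a8, the glutamate transporter of some interneurons, at -0.61 ± 0.15 (SE, limma adjusted p = 0.108). Active zone scaffolds and channels were higher for 4 and lower for 5 of 9. The lower ones included liprin genes Ppfia1 at -0.58 ± 0.12 (SE, limma adjusted p = 0.0723) and Ppfia2 at -0.36 ± 0.11 (SE), and Pclo, which encodes the giant scaffold piccolo, at -0.49 ± 0.16 (SE, limma adjusted p = 0.208). All CCH arrays lay below all controls for each of these 3. Elsewhere on the list the groups did not overlap for Slc17a8, lower in CCH, and for Slc30a3, Doc2b, Cltb and Sh3gl1, higher in CCH. Of all tested probes 11.3% had groups without overlap.

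Vesicle endocytosis genes were higher for 10 of 12, led in p by the endophilin gene Sh3gl1 at 0.44 ± 0.09 (SE, limma adjusted p = 0.0789), while dynamin 1 (Dnm1) was at 0.19 and the clathrin heavy chain Cltc at -0.05. Genes of SNARE disassembly and priming were higher for 6 of 8. The ATPase Nsf, which takes used SNARE complexes apart, differed by -0.22 ± 0.15 (SE), and the calcium-binding Doc2b by 0.41 ± 0.12 (SE, limma adjusted p = 0.157). Vesicle membrane proteins were higher for 7 of 8, with Scamp5 and Syngr1 highest at 0.24 each, and proton pump genes for 6 of 8, from -0.18 for Atp6v1e1 to 0.22 for Atp6v1h. Over all tested probes 55.1% were higher in CCH.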

How the data were processed

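Cy3-labelled hippocampal RNA of 4 CCH and 4 control rats was measured on 1-colour Agilent arrays, 1 per rat. The authors extracted intensity values with Agilent Feature Extraction 9.5, per the submitters' processing notes. The deposited processed signal is a linear intensity, background-subtracted and detrended within the array, per the file headers, with no scaling between arrays. The deposited value table holds the same signal rounded (largest relative difference 0.00498; column medians 102, 85.35, 76.9 and 71.8 for CCH and 80.2, 63.25, 69.2 and 66 for control replicates 1 to 4), so its scale is linear, without centring or ratios.

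Probes were named through RefSeq accessions of a GRCr8 gene table, 15184 of 41012; the array grid names build rn4, so no coordinates are given. Spots with an outlier mark (55 to 122 per array) were set to missing, each array was scaled to the 75th percentile of its non-control spots and log2 taken, and spots of a probe were averaged; no member value was missing. Probes well above background on at least 4 of 8 arrays, with at least 3 values per group, were tested with limma 3.58.1 in R 4.3.3, two-sided, Benjamini-Hochberg adjusted over all 31618, at a threshold of 0.05. On simulated data of 31618 probes, this test recovered 68% of probes changed by a log2 of 1 and 88% of those changed by 2. It also made 9 false calls. Smaller changes, the size of most member differences, were not simulated, and the simulated noise held no slide effect. Array measures were compared by exact permutation. The number of arrays limits the precision. The limma p-values set a difference against the spread between arrays of the same diet, which holds no spread between slides.

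A gene's probe is its brightest. The text names called probes, those with an unadjusted p under 0.05, the 2 largest differences per role, 21 core release genes and their other probes (45 in all); other members appear by value to complete a role. Other presynaptic genes and marker genes are given as counts, with values for some chosen after they were seen. Of the marker lists, neurons were higher for 4 of 6 tested, hippocampal neurons 6 of 6, interneurons 2 of 4, astrocytes 4 of 6, oligodendrocytes 7 of 7, microglia 2 of 6, endothelium 1 of 4 and choroid plexus 0 of 6, 0 called in any. Members, lists and tests were chosen with earlier results of these data known. Normexp used the median spot signal in place of the planned mean. A slide block could not be fitted, because each slide held 1 diet. Results of some genes on these lists are not reported here, though they are in the counts.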

Additional observations from a re-analysis of the deposited data

Results flagged for a closer look

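On 8 probes, 1 array stood apart from the other 3 of its diet by Dixon's test at 95%. A total of 90 groups of 4 arrays were tested, and chance alone marks about 1 in 20. Both Sv2b probes were low on CCH replicate 1, at -5.64 against -4.86 to -4.70 on the other CCH arrays and at -1.15 against -0.52 to -0.45. Without that array the Sv2b differences were 0.18 and 0.07. Unc13b was high on CCH replicate 1, at -2.05 against -2.55 to -2.48, and its difference was 0.23 without it. Syn1 read -4.76 on control replicate 4 against -0.03 to 0.23 on the other controls, and its difference was 0.13 without that array. Sv2c read -3.29 on control replicate 3 against -7.30 to -6.73 on the other controls, and without that array it no longer passed the filter on low signal. The dimmer Syt1 probe read -1.16 on control replicate 3 against -0.93 to -0.92, with a difference of 0.15 without it. Unc13a read -0.61 on CCH replicate 2 against -0.76 to -0.74, with a difference of -0.13 without it. A Vamp1 probe read -0.70 on CCH replicate 2 against -0.82 to -0.80, with a difference of -0.10 without it. The cause of these readings was not tested.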

How the results depend on the processing

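Over all tested probes the calls were 24 higher and 31 lower in CCH. They were 69 and 177 with normexp, 10 and 19 with no detection filter, 99 and 110 with probes well above background on all 8 arrays, 743 and 596 with array weights, and 94 and 121 with a trended robust fit. With the replicate number as a block they were 0 and 0. Same-numbered arrays held the same position on their slides, so the block is also one on position. Their deviations correlated at 0.145, 0.08, -0.0052 and 0.246, with 1 of 4 highest for its own number. With 2 settings chosen after seeing the data, a choroid plexus marker covariate gave 1 and 0, and leaving out both CCH arrays low in those markers gave 0 and 0. Leaving out 1 array gave 0 to 420 higher and 0 to 313 lower, the upper ends without CCH replicate 1. Member calls were 0 except with normexp (0 higher and 2 lower of 97) and array weights (1 higher and 3 lower of 97). Over all tested probes normexp called 0.218% higher and 0.56% lower, and array weights 2.35% higher and 1.89% lower. With normexp the members' median was -0.050 and that of all tested probes -0.070. A slide block could not be fitted.

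Some probes near 0 turned sign, and the cause was not tested. With normexp Rab33b was at -0.064, Rims1 -0.041, Stx11 -0.17, Syn3 -0.10 and the brighter Vamp2 probe -0.0017. With quantile normalization Cplx2 was at -0.020 and Syn2 at -0.019. With array weights Cplx1 was at 0.012, Snap25 -0.017, Sv2b 0.18 and 0.060, Syt1 0.13 and Syt7 0.16. With the choroid covariate Cplx2 was at -0.12, Rims1 -0.12, Syn2 -0.11 and Vamp2 -0.013 and -0.037. Without both low-choroid CCH arrays Cplx2 was at -0.071, Rims1 -0.10, Syn2 -0.091 and Vamp2 -0.0060 and -0.0059. Leaving out 1 array, Cplx1 ranged from -0.046 to 0.044, Cplx2 from -0.082 to 0.18, Rims1 from -0.024 to 0.15, Snap25 from -0.031 to 0.072, Sv2b from -0.14 to 0.18 and from -0.16 to 0.075, Syn2 from -0.081 to 0.12, Syt1 from -0.13 to 0.15, Syt2 from -0.25 to 0.075, Syt7 from -0.15 to 0.18, a Vamp1 probe from -0.13 to 0.014 and the brighter Vamp2 probe from -0.025 to 0.086. Dim probes such as Sv2c, Stx11, Rab32 and Syt8 are limited by signal over background.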
